A study of Mus musculus with 10 samples.

Results

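The genes described here are the semaphorins, plexins and neuropilins of mouse embryonic stem cells (mESCs), taken from the gene table by their symbols: every *Sema* gene with a class number and letter, every *Plxn* gene, *Nrp1* and *Nrp2*. The table held 31 of them among 34591 genes, and 24 reached at least 0.1 FPKM (fragments scaled to exon length and to library depth) in 2 or more of the 10 libraries. These 24 were 4 of 7 secreted semaphorins, 11 of 12 transmembrane semaphorins, the GPI-anchored *Sema7a*, 7 of 9 plexins and 1 of 2 neuropilins. Of all 34591 genes, 17870 passed the same limit.

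The libraries came from wild-type (WT) mESCs and from CRISPR/Cas9 knockout (KO) lines of *Dnttip1* (clones D2A7 and D1E6) or *Elmsan1* (clones E2E8 and E2G7), with 2 libraries of total RNA per line. *Dnttip1* and *Elmsan1* encode scaffold subunits of MiDAC, a histone deacetylase complex that also holds HDAC1. All lines were derived from male C57/BL6 Bruce-4 mESCs and were kept in 2iL medium, with inhibitors of GSK3β and MEK plus LIF, which holds them in the naive pluripotent state. Each knockout line is a single clone grown from 1 sorted cell and the WT libraries come from 1 line, so the 2 libraries of a line measure the spread within that line.

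Semaphorins are secreted or membrane-bound guidance proteins that share a sema domain, and plexins are their receptors. Class 3 semaphorins are secreted and most of them signal through a complex of a class A plexin with a neuropilin, which binds the ligand but has little signalling activity of its own. Semaphorins of classes 4 to 7 are mainly held in the membrane and bind plexins directly. The plexin tail acts on small GTPases and through them on the cytoskeleton, which is how the family steers axons, vessels and migrating cells. Neuropilins also bind VEGFs and assist VEGF receptors.

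The libraries held between 3.11e+07 (WT replicate 1) and 8.65e+07 (E2G7 replicate 2) fragments, as recovered from the steps between low FPKM values. *Dnttip1* lay at 8.15 and 8.43 FPKM in WT, 4.57 and 4.56 in D2A7, 2.59 and 2.63 in D1E6, 6.47 and 6.79 in E2E8 and 7.63 and 7.77 in E2G7. *Elmsan1*, listed under its older name C130039O16Rik, lay at 5.53 and 5.39 FPKM in WT, 4.92 and 5.18 in E2E8 and 4.62 and 4.75 in E2G7, and it was called higher in *Dnttip1* KO (7.79, 8.68, 8.65 and 8.55 FPKM, log2 fold change 0.59). The level of *Elmsan1* mRNA therefore did not check the labels of these clones, which carry small insertions or deletions. All 10 pluripotency markers (*Pou5f1*, *Sox2*, *Nanog* and others) stood at 1 FPKM or more in every library and 0 were called. Below 1.5-fold, 2 in *Dnttip1* KO and 5 in *Elmsan1* KO had a limma adjusted p under 0.05 (all genes: 1651 of 17434 and 1812 of 17212). In both knockouts these included *Sox2*, which was lower (−0.38 and −0.46), and *Zfp42*, which was higher (0.50 and 0.36). Log2 fold changes were negative for 6 and positive for 4 in *Dnttip1* KO, and for 8 and 2 in *Elmsan1* KO. In every library, 5 of 7 fibroblast markers and 5 of 9 neural markers stayed under 0.1 FPKM. The summed level of the neural markers ranged from 59.1 to 62.7 FPKM in WT, from 84.1 to 95.5 in *Dnttip1* KO and from 50.8 to 96.9 in *Elmsan1* KO libraries. Most of this sum was *Tubb3*, with means of 55.9 FPKM in WT, 78.9 in *Dnttip1* KO and 66.2 in *Elmsan1* KO. *Tubb3* and *Zfp42* lie on chromosome 8, whose genes had a median log2 difference from WT of 0.34 to 0.36 in every clone. Of the 4 neural markers tested, *Nes* (nestin) was called higher in both knockouts (log2 fold changes 1.30 and 0.80), *Elavl3* was called lower in *Dnttip1* KO (−0.68; −0.82 in *Elmsan1* KO, not called), *Tubb3* (0.46 and 0.15) and *Sox1* (0.22 and −0.36) were not called, and *Dcx* and *Neurog2* were at or near 0. Of the 4 mesendoderm markers tested, *T* (brachyury) was called lower in both knockouts (−1.16 and −0.95), and *Gsc* lower (−1.52) and *Eomes* higher (0.70) in *Elmsan1* KO. Of the 5 primitive endoderm markers tested, *Col4a1*, which also lies on chromosome 8, was called higher in *Dnttip1* KO (0.77). The part of these markers in the results below was not tested.

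Relative to WT, *Nrp2* and *Sema3e* were called lower and *Sema3b* and *Sema6b* higher in each knockout. Their proximal promoters are shown here, as the 250 bases before the annotated 5′ end of each gene in NCBIM37 (mm9) with GENCODE vM1, because these 4 genes were called in each knockout, although the direction of *Sema3e* was fixed by the limit on low values. The sequences run 5′ to 3′ on the strand of the gene, and capitals mark a GC box (GGGCGG, or CCGCCC on the other strand), the motif bound by SP and KLF factors.
*Nrp2*, chr1:62749609-62749858, plus strand: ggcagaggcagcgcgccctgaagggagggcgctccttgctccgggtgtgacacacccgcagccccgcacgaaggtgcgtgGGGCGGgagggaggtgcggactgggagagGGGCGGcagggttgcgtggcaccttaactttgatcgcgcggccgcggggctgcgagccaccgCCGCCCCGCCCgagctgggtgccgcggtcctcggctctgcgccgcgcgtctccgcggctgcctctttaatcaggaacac
*Sema3e*, chr5:14025026-14025275, plus strand: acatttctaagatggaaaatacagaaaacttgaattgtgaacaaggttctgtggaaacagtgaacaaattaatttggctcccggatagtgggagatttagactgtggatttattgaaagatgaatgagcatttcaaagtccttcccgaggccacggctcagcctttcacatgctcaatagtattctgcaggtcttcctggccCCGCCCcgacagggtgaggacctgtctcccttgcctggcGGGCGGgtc
*Sema3b*, chr9:107511561-107511810, minus strand: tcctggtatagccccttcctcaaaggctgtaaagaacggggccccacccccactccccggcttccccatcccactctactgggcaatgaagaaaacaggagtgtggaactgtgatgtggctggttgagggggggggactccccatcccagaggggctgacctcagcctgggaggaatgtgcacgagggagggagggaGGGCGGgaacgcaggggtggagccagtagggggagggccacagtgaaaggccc
*Sema6b*, chr17:56279767-56280016, minus strand: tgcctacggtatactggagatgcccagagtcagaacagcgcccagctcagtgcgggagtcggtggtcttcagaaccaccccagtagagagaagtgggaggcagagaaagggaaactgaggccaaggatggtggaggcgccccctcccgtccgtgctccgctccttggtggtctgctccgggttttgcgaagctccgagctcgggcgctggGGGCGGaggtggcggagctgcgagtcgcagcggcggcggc

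The *Nrp2* promoter held 4 GC boxes, a pair of which overlap, with 31 CG dinucleotides and 73.2% G and C. *Sema3e* held 2 GC boxes and 7 CG dinucleotides (48% G and C), *Sema3b* held 1 and 5 (63.6%), and *Sema6b* held 1 and 20 (66%). A GC box stood in 20 of the 24 promoters, against 39.7% of the 22048 protein-coding promoters of the same length. The 24 genes had passed the limit of 0.1 FPKM, while the 22048 promoters were taken whatever the level of their gene. The ETS motif CCGGAAG stood in 1 of the 24 (*Plxnb1*) against 8.23% of all promoters, while the TATA box TATAAA (12.3% of all) and the E box CACGTG (6.52% of all) stood in 0, each searched on both strands; none of the 4 motifs contains another. The median over the 24 genes was 64.6% G and C with 16.5 CG dinucleotides, beside 54% and 8 over all promoters. GC boxes were thus common in the 24 members, in genes that were lower, higher or not called. Whether they were more common there than in other genes that passed the limit was not tested.

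Levels spanned more than 2 orders of magnitude. The highest member was *Plxnb2*, the receptor of the transmembrane *Sema4c* and *Sema4d* (mean 31.3 ± 3.28 FPKM, SD, n = 10 libraries), followed by the transmembrane *Sema4b* (26.7 ± 1.12) and by *Plxna1*, a partner of neuropilins in class 3 signalling (12.5 ± 3.90). The ranges of *Plxnb2* and *Sema4b* over the libraries overlapped, whereas *Sema4b* stood above *Plxna1* and *Plxna1* above *Sema3b* in every library. A second tier of 9 genes had means between 1 and 10 FPKM. In falling order these were *Sema3b* (4.96), *Sema6c* (4.28), *Sema5a* (3.98), *Plxnb1* (3.85), *Sema4d* (2.42), *Nrp2* (2.32), *Plxna3* (1.69), *Sema6b* (1.16) and *Sema5b* (1.13), with ranges that overlapped between neighbours. The other 12 members lay under 1 FPKM, from *Sema4c* (0.937), *Sema4f* (0.874), *Sema3f* (0.866), *Sema4g* (0.801), *Plxna2* (0.655), *Sema7a* (0.595) and *Sema4a* (0.583) down to *Sema6a* (0.267), *Sema3c* (0.212), *Plxnd1* (0.146), *Plxnc1* (0.0887) and *Sema3e* (0.0865).

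**Figure D1:**
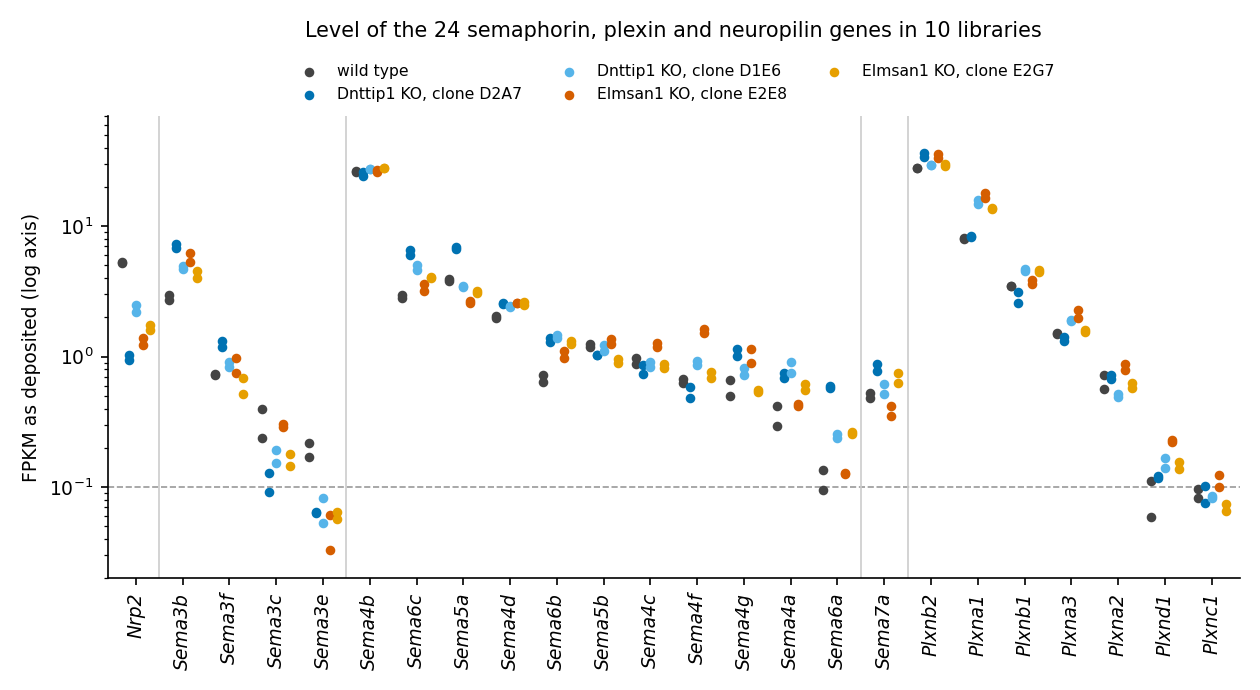
FPKM as deposited (log axis) of the 24 genes, grouped as neuropilin, secreted, transmembrane and GPI-anchored semaphorins and plexins, with 1 point per library coloured by line and a dashed line at 0.1 FPKM. *Sema4b* varied 1.15-fold over the 10 libraries, *Nrp2* 5.68-fold and *Sema3e* 6.54-fold.

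The limit of the rule touched single genes. *Sema3e* passed it through the WT libraries alone (0.216 and 0.170 FPKM), so it could enter the comparisons only as a gene that was higher in WT, and *Plxnc1*, the receptor of *Sema7a*, passed it at 0.101 (D2A7 replicate 2) and 0.125 FPKM (E2E8 replicate 2). The gene nearest below the limit was *Nrp1*, the co-receptor of *Sema3a* and VEGFA, with at most 0.0653 FPKM, or 12 and 13 fragments in the WT libraries. *Sema3a*, *Sema3d*, *Sema3g*, *Sema6d*, *Plxna4* and *Plxnb3* were lower still. *Nrp2* was therefore the neuropilin of these cells by level, and at this depth no difference in the 7 genes under the limit was looked for.

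The first question was which members differed between WT and the knockout lines of each MiDAC subunit. Genes are said to be called where the log2(FPKM + 0.1) difference was at least 1.5-fold with an unadjusted p under 0.01 in limma. In *Dnttip1* KO versus WT (4 against 2 libraries), 2 of 23 members tested were called lower (8.70%, against 3.25% of all 17434 genes tested) and 4 were called higher (17.4%, against 3.26%). In *Elmsan1* KO versus WT (4 against 2), 2 of 23 were called lower (8.70%, against 3.68% of 17212 genes) and 3 higher (against 2.74%). The median log2 fold change of the members was 0.27 in *Dnttip1* KO and 0.22 in *Elmsan1* KO, beside 0.02 and 0.003 over all genes tested. In *Dnttip1* KO the libraries of both groups did not overlap for 4 members that were lower and 10 that were higher, and in *Elmsan1* KO for 3 and 6. Over all genes tested, 20.8% were lower and 21.1% higher without overlap in *Dnttip1* KO, and 21.8% and 21.3% in *Elmsan1* KO, so that only the 10 of 23 higher members of *Dnttip1* KO (43.5%) lay well above that share. *Sema3e* reached 0.1 FPKM in WT alone and could be called only as lower, and *Sema6a* and *Plxnd1* reached it in 1 WT library. Among the 20 members with at least 0.1 FPKM in 2 libraries of both groups, 1 (*Nrp2*) was called lower in each knockout (5%, against 3.14% and 3.37% of all such genes), 4 were called higher in *Dnttip1* KO (20%, against 3.13%) and 3 in *Elmsan1* KO (15%, against 2.68%). Without overlap in *Dnttip1* KO, 8 of these 20 were higher (40%, against 21.2% of all such genes) and 3 were lower (15%, against 22.1%). Both comparisons rest on the same 2 WT libraries. Every knockout clone was transfected and grown from a sorted cell, and no such step is described for WT. Loss of a subunit therefore cannot be told apart from this difference in history in either comparison. With an adjusted p under 0.05 as the limit, 4 calls were made in each knockout. When the correlation between libraries of a clone was estimated, 4 calls were left in *Dnttip1* KO (*Nrp2*, *Sema3b*, *Sema6b* and *Sema6c*) and 2 in *Elmsan1* KO (*Nrp2* and *Plxna1*). The 4 calls left in *Dnttip1* KO rest on the unadjusted p, as their limma adjusted p in that fit lay between 0.149 and 0.174.

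**Figure D2:**
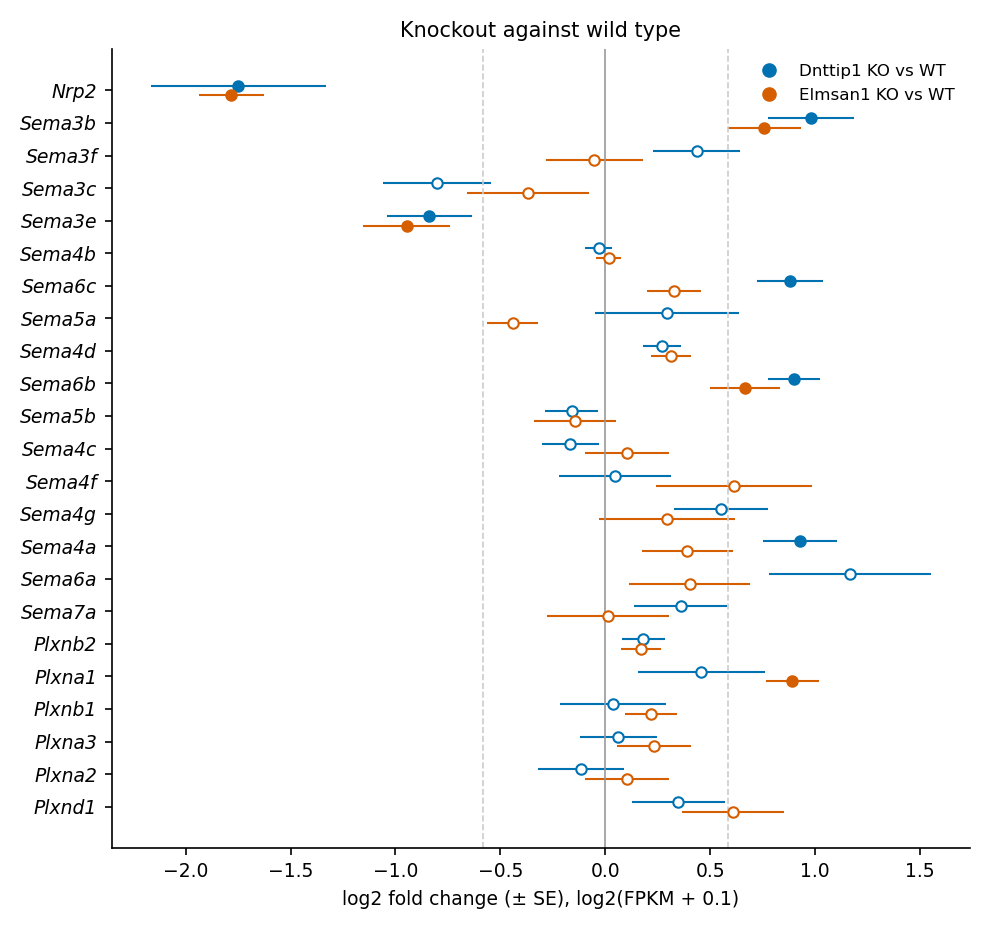
Log2 fold change of 23 members in *Dnttip1* KO (blue) and *Elmsan1* KO (orange) versus WT on the log2(FPKM + 0.1) scale, with bars of 1 SE; filled points were called, open points were not, and dashed lines mark a 1.5-fold difference. *Nrp2* stands furthest to the left, at −1.75 and −1.78.

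*Nrp2* encodes neuropilin 2, the co-receptor of SEMA3F and of VEGFC. It lay at 5.21 and 5.33 FPKM in WT. In *Dnttip1* KO it lay at 1.03 and 0.939 FPKM in clone D2A7 and at 2.22 and 2.48 in clone D1E6. In *Elmsan1* KO it lay at 1.40 and 1.23 FPKM in clone E2E8 and at 1.75 and 1.61 in clone E2G7. All 8 knockout libraries were below both WT libraries, and the highest of them, D1E6 replicate 2, stood at 2.48 FPKM. The log2 fold change was −1.75 in *Dnttip1* KO (SE 0.417, adjusted p = 0.0537, limma) and −1.78 in *Elmsan1* KO (SE 0.156, adjusted p = 0.00329). On the scale of the fit this is 0.297 and 0.291 of the WT level, and the larger error in *Dnttip1* KO goes with the gap between its clones, which stood at −2.33 (D2A7) and −1.17 (D1E6) from WT. In a bulk sample, fewer cells that express a gene and less RNA per cell cannot be told apart. Without D2A7 replicate 1, or with 1 WT library left out, the *Dnttip1* KO difference was no longer called, while the *Elmsan1* KO difference was called under all 19 alternatives.

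Among the secreted semaphorins, *Sema3b* was called higher in both knockouts, and *Sema3e*, which could be called in 1 direction alone, was called lower. *Sema3b*, whose product binds neuropilins, lay at 2.97 and 2.73 FPKM in WT. Its level was 6.79 and 7.24 FPKM in D2A7 and 4.96 and 4.71 in D1E6. It was 5.33 and 6.23 FPKM in E2E8 and 4.04 and 4.56 in E2G7, so that every knockout library was above both WT libraries. It was higher by 0.98 on the log2 scale in *Dnttip1* KO (SE 0.205, adjusted p = 0.0390) and 0.76 in *Elmsan1* KO (SE 0.176, adjusted p = 0.0444). With an estimated correlation within clones the *Elmsan1* KO call was lost (adjusted p = 0.330), and leaving out either WT library ended both calls, as leaving out E2E8 replicate 1 did in *Elmsan1* KO.

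*Sema3e* differs from other class 3 semaphorins in that it binds plexin D1 without a neuropilin. It lay at 0.216 and 0.170 FPKM in WT. It stood at 0.0637 and 0.0645 FPKM in D2A7, 0.0820 and 0.0529 in D1E6, 0.0331 and 0.0609 in E2E8 and 0.0573 and 0.0641 in E2G7. These levels rest on 51 and 49 fragments in the WT libraries and on 19 to 42 in the deeper knockout libraries. The log2 fold change was −0.84 in *Dnttip1* KO (SE 0.202, adjusted p = 0.0549) and −0.95 in *Elmsan1* KO (SE 0.206, adjusted p = 0.0372), on a scale whose pseudocount of 0.1 understates the change of a gene this low. With an estimated correlation both calls were lost (adjusted p = 0.506 and 0.512), as they were with a pseudocount of 1, and the *Dnttip1* KO call was also lost without any 1 of its 4 knockout libraries.

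**Figure D3:**
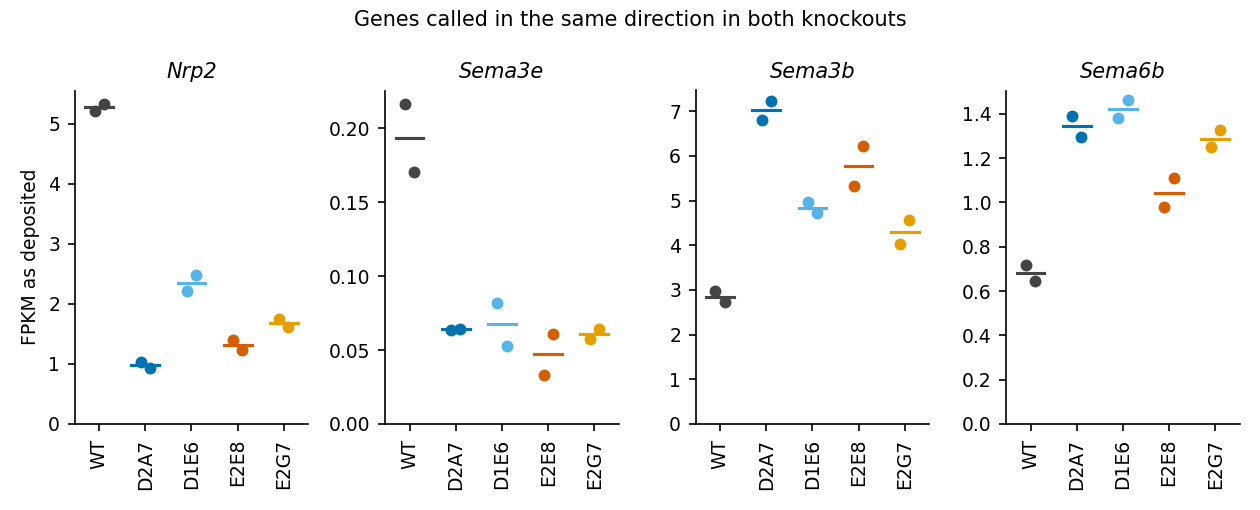
FPKM as deposited of *Nrp2*, *Sema3e*, *Sema3b* and *Sema6b* in WT, in clones D2A7 and D1E6 (*Dnttip1* KO) and in clones E2E8 and E2G7 (*Elmsan1* KO), with 1 point per library and a bar at the mean of each line. The WT points lie above all knockout points for *Nrp2* and *Sema3e* and below them for *Sema3b* and *Sema6b*; for *Sema3e* the highest knockout library stands at 0.0820 FPKM.

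The remaining secreted members were not called. *Sema3c*, which lies on chromosome 5 as *Sema3e* does, had 0.239 and 0.399 FPKM in WT, a mean of 0.141 ± 0.0416 in *Dnttip1* KO (SD, n = 4; log2 fold change −0.80, adjusted p = 0.107) and 0.230 ± 0.0805 in *Elmsan1* KO (−0.37, adjusted p = 0.457). *Sema3f*, the main ligand of neuropilin 2, lies on chromosome 9 as *Sema3b* does. It had 0.735 ± 0.00892 FPKM in WT (n = 2), 1.07 ± 0.229 in *Dnttip1* KO and 0.733 ± 0.191 in *Elmsan1* KO. Its log2 fold changes were 0.44 (adjusted p = 0.236) and −0.05 (adjusted p = 0.907). The sum over the 4 secreted members ranged from 4.04 to 4.16 FPKM in WT, from 5.87 to 8.72 in *Dnttip1* KO and from 4.96 to 7.58 in *Elmsan1* KO, with *Sema3b* as its largest part.

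Of the 11 transmembrane semaphorins, 3 were called higher in *Dnttip1* KO, and 1 of these, *Sema6b*, also in *Elmsan1* KO. *Sema6b*, a class 6 semaphorin that binds class A plexins, lay at 0.720 and 0.643 FPKM in WT. It reached 1.39 and 1.30 FPKM in D2A7, 1.38 and 1.46 in D1E6, 0.979 and 1.11 in E2E8 and 1.25 and 1.33 in E2G7. Every knockout library was above WT. The fitted difference was 0.90 (log2) in *Dnttip1* KO (SE 0.123, adjusted p = 0.0129) and 0.67 in *Elmsan1* KO (SE 0.167, adjusted p = 0.0555). The *Elmsan1* KO call was made under 6 of 19 alternatives and was lost with an estimated correlation (adjusted p = 0.443).

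*Sema6c*, of the same class, lay at 2.97 and 2.79 FPKM in WT. It stood at 5.97 and 6.53 FPKM in D2A7 and 5.01 and 4.62 in D1E6, and at 3.19 and 3.62 in E2E8 and 4.09 and 3.98 in E2G7. The *Dnttip1* KO libraries were the highest 4 of the 10. It was 0.88 higher on the log2 scale in *Dnttip1* KO (SE 0.158, adjusted p = 0.0270), and in *Elmsan1* KO it was 0.33 (SE 0.128, adjusted p = 0.160), which was not called. Without WT replicate 2 the *Dnttip1* KO call was lost.

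*Sema4a*, known for its part in T cell responses and in the retina, lay at 0.291 and 0.420 FPKM in WT. It stood at 0.750 and 0.689 FPKM in D2A7, 0.905 and 0.754 in D1E6, 0.415 and 0.435 in E2E8 and 0.551 and 0.616 in E2G7. The *Dnttip1* KO libraries lay above all others, while E2E8 replicate 1 lay within the range of WT. The difference on the log2 scale was 0.93 in *Dnttip1* KO (SE 0.178, adjusted p = 0.0317) and 0.39 in *Elmsan1* KO (SE 0.216, adjusted p = 0.292). With an estimated correlation the *Dnttip1* KO call was lost (adjusted p = 0.349), as it was without WT replicate 1.

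Other transmembrane members were not called in either knockout. *Sema6a*, a ligand of plexins A2 and A4, had the largest difference among them, with 0.0955 and 0.136 FPKM in WT, 0.575 and 0.597 in D2A7 and 0.253 and 0.236 in D1E6, and 0.128, 0.126, 0.265 and 0.255 in the *Elmsan1* KO libraries. Its log2 fold change of 1.17 in *Dnttip1* KO had an SE of 0.386 (adjusted p = 0.117), since D2A7 stood 1.67 and D1E6 0.67 above WT. *Sema4d*, the ligand of plexin B1, stood above WT in all 8 knockout libraries by little (0.27 and 0.31, adjusted p = 0.116 and 0.0860). *Sema5a*, which carries thrombospondin repeats, had 5.13 ± 1.93 FPKM in *Dnttip1* KO and 2.88 ± 0.306 in *Elmsan1* KO, beside 3.87 ± 0.131 in WT (0.29 and −0.44, adjusted p = 0.624 and 0.0699). *Sema4b*, the second highest member, lay at 26.5 and 26.2 FPKM in WT, 24.4 and 26.1 in D2A7, 27.6 and 27.2 in D1E6, 25.8 and 26.8 in E2E8 and at 28.0 in both E2G7 libraries (−0.03 and 0.02, adjusted p = 0.795 and 0.881). For *Sema4c*, *Sema4f*, *Sema4g* and *Sema5b* the differences lay between −0.17 and 0.61 with adjusted p of at least 0.178. The GPI-anchored *Sema7a*, which binds plexin C1 and integrins, differed by 0.36 and 0.01 (adjusted p = 0.3497 and 0.982).

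Of the 6 plexins tested, *Plxna1* was called higher in *Elmsan1* KO, and none was called in *Dnttip1* KO. *Plxna1* lay at 8.18 and 7.95 FPKM in WT. It stood at 8.32 and 8.46 FPKM in D2A7 and at 15.8 and 14.8 in D1E6, and at 16.4 and 18.02 in E2E8 and 13.5 and 13.8 in E2G7. Clone D2A7 thus lay near WT, while the other 3 clones lay well above it. The log2 fold change was 0.89 in *Elmsan1* KO (SE 0.127, adjusted p = 0.0117) and 0.46 in *Dnttip1* KO (SE 0.302, adjusted p = 0.378).

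*Plxna1* lies on chromosome 6, as do *Sema4f* and *Plxnd1*, and the genes of this chromosome moved together by clone. Over 504 genes of chromosome 6 with at least 1 FPKM in every library, the median log2 difference from WT was −0.08 in D2A7, 0.42 in D1E6, 0.38 in E2E8 and 0.29 in E2G7. *Plxna1* differed from WT by 0.04, 0.88, 1.05 and 0.73 in the same order. When each clone's median on chromosomes 6 and 8 was set to 0, the difference of *Plxna1* in *Elmsan1* KO fell to 0.56 (adjusted p = 0.0289), below 1.5-fold. On chromosome 8, whose median was 0.34 to 0.36 in every clone, the only member was *Nrp1*, which was too low to be tested. The part of these medians in the level of *Plxna1* was not tested beyond this centring.

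**Figure D4:**
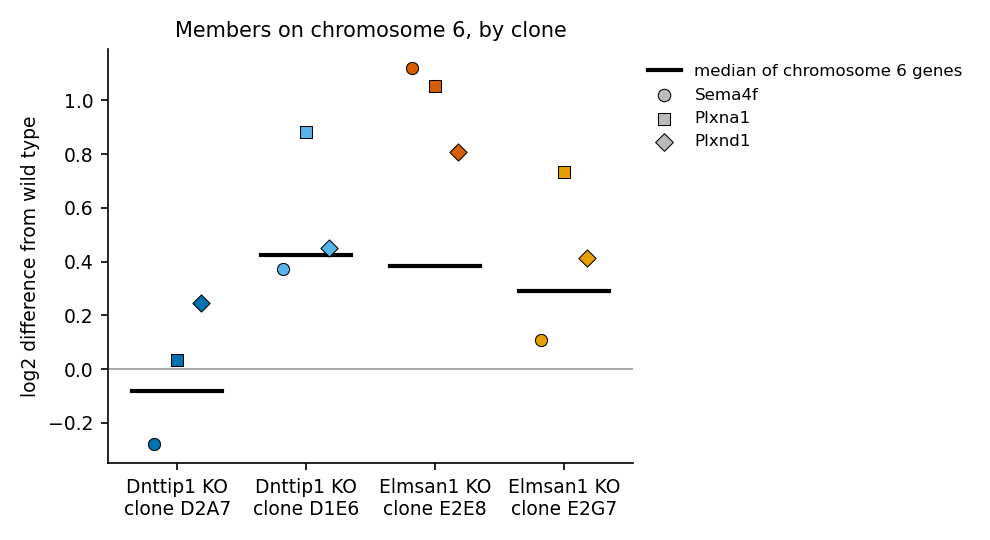
Log2 difference from WT of *Sema4f*, *Plxna1* and *Plxnd1* in each knockout clone, with a black bar at the median of 504 genes of chromosome 6. The bar lies at −0.08 in D2A7 and between 0.29 and 0.42 in the other clones, and *Plxna1* stands above it in each clone.

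*Plxnb2*, the highest member, lay at 28.0 and 27.7 FPKM in WT, 34.2 and 36.2 in D2A7, 29.6 and 29.5 in D1E6, 33.5 and 36.0 in E2E8 and 28.9 and 29.9 in E2G7. Every knockout library was above both WT libraries as deposited, while after scaling the *Elmsan1* KO libraries overlapped WT. It differed from WT by 0.18 and 0.17 (adjusted p = 0.309 and 0.294), with 27.9 ± 0.225 FPKM in WT, 32.4 ± 3.35 in *Dnttip1* KO and 32.1 ± 3.30 in *Elmsan1* KO. *Plxnb1*, the receptor of *Sema4d*, differed by 0.04 and 0.22, *Plxna2*, a receptor of *Sema6a*, by −0.12 and 0.10, and *Plxna3*, a receptor of *Sema3f*, by 0.06 and 0.23, with adjusted p of at least 0.303. *Plxnd1*, the receptor of *Sema3e*, had 0.112 and 0.0587 FPKM in WT and between 0.118 and 0.230 in the knockout libraries, all above WT. Its differences of 0.35 and 0.61 were not called (adjusted p = 0.365 and 0.167). The plexin sum ranged from 41.5 to 42.0 FPKM in WT, from 47.3 to 52.6 in *Dnttip1* KO and from 49.2 to 61.4 in *Elmsan1* KO, with *Plxnb2* and *Plxna1* as its main parts.

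The knockouts were then compared with each other (4 against 4 libraries). Each subunit is represented by 2 clones, and the correlation within clones was 0.856 here. A difference between the subunits therefore cannot be told apart from a difference between clones. In limma, 0 of 23 members were called lower, against 0.415% of 17588 genes, and 0 were called higher, against 1.11%. An unadjusted p under 0.05 was reached by 5 members, and the share over all genes at that limit was not taken. With voom on the recovered fragments, 1 member was called (*Sema4a*). *Nrp2* differed by 0.03 on the log2 scale (SE 0.308, adjusted p = 0.966). *Sema6a* (0.76), *Sema5a* (0.74), *Sema6c* (0.55) and *Sema4a* (0.54) had higher fitted values in *Dnttip1* KO, with adjusted p between 0.296 and 0.306, and *Sema4f* had a lower one (−0.57, adjusted p = 0.375). *Sema5a*, *Sema6c* and *Sema4a* were higher in every *Dnttip1* KO library than in every *Elmsan1* KO library. The calls of *Sema4a* and *Sema6c* in *Dnttip1* KO alone are therefore not shown to be particular to that knockout. Without either D1E6 library, *Sema5a* and *Sema6c* were called higher in *Dnttip1* KO, without E2G7 replicate 1 *Sema6c* was, and without E2G7 replicate 2 *Sema4a* and *Sema6c* were.

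Clones of the same knockout differed from each other in several members (2 against 2 libraries each). Between D2A7 and D1E6, 4 of 22 members tested were called lower in D2A7 (against 3.73% of 16991 genes) and 2 higher (against 9.2%). *Nrp2* (−1.16, adjusted p = 0.00162), *Plxna1* (−0.85, adjusted p = 0.000664), *Plxnb1* (−0.67, adjusted p = 0.00846) and *Sema4f* (−0.65, adjusted p = 0.0207) were lower in D2A7. *Sema5a* (0.97, adjusted p = 0.000532) and *Sema6a* (1.00, adjusted p = 0.00623) were higher in it. *Sema5a* illustrates the size of these gaps, with 6.88 and 6.72 FPKM in D2A7, 3.44 and 3.47 in D1E6 and 3.78 and 3.96 in WT (2.57 and 2.68 in E2E8, 3.09 and 3.19 in E2G7). *Plxnb1* lay at 2.58 and 3.14 FPKM in D2A7, at 4.53 and 4.72 in D1E6 and at 3.49 and 3.45 in WT, so that WT lay between the clones for this gene (3.63 and 3.86 in E2E8, 4.45 and 4.605 in E2G7). With chromosomes 6 and 8 centred, the differences of *Plxna1* (−0.34) and *Sema4f* (−0.15) were no longer called. The call of *Sema4f* was also lost without D2A7 replicate 1 or either D1E6 library, that of *Sema6a* without either D2A7 library and that of *Plxnb1* without D2A7 replicate 1.

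Between E2E8 and E2G7, 2 of 22 members were called lower in E2E8 (against 3.27% of 16723 genes) and 2 higher (against 10.5%). *Sema4f* lay at 1.51 and 1.63 FPKM in E2E8 and 0.756 and 0.687 in E2G7, beside 0.676 and 0.631 in WT and 0.479, 0.582, 0.932 and 0.859 in the *Dnttip1* KO libraries. It was 1.01 higher in E2E8 on the log2 scale (SE 0.0952, adjusted p = 0.00182), and 0.92 higher with chromosome 6 centred. *Sema4g* lay at 0.897 and 1.15 FPKM in E2E8, 0.533 and 0.551 in E2G7, 0.667 and 0.504 in WT, 1.01 and 1.15 in D2A7 and 0.728 and 0.824 in D1E6 (0.79 between the clones, adjusted p = 0.00953). *Sema6a* (−0.67, adjusted p = 0.0195) and *Sema7a* (−0.71, adjusted p = 0.0128) were lower in E2E8. *Sema7a* had 0.352 and 0.416 FPKM in E2E8, 0.633 and 0.747 in E2G7, 0.527 and 0.480 in WT, 0.879 and 0.770 in D2A7 and 0.622 and 0.521 in D1E6. *Nrp2* was not called between these clones (−0.34, adjusted p = 0.0379). Of these calls, that of *Sema6a* was lost without any 1 of the 4 libraries, that of *Sema4g* without either E2G7 library and that of *Sema7a* without E2E8 replicate 1 or E2G7 replicate 2.

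**Figure D5:**
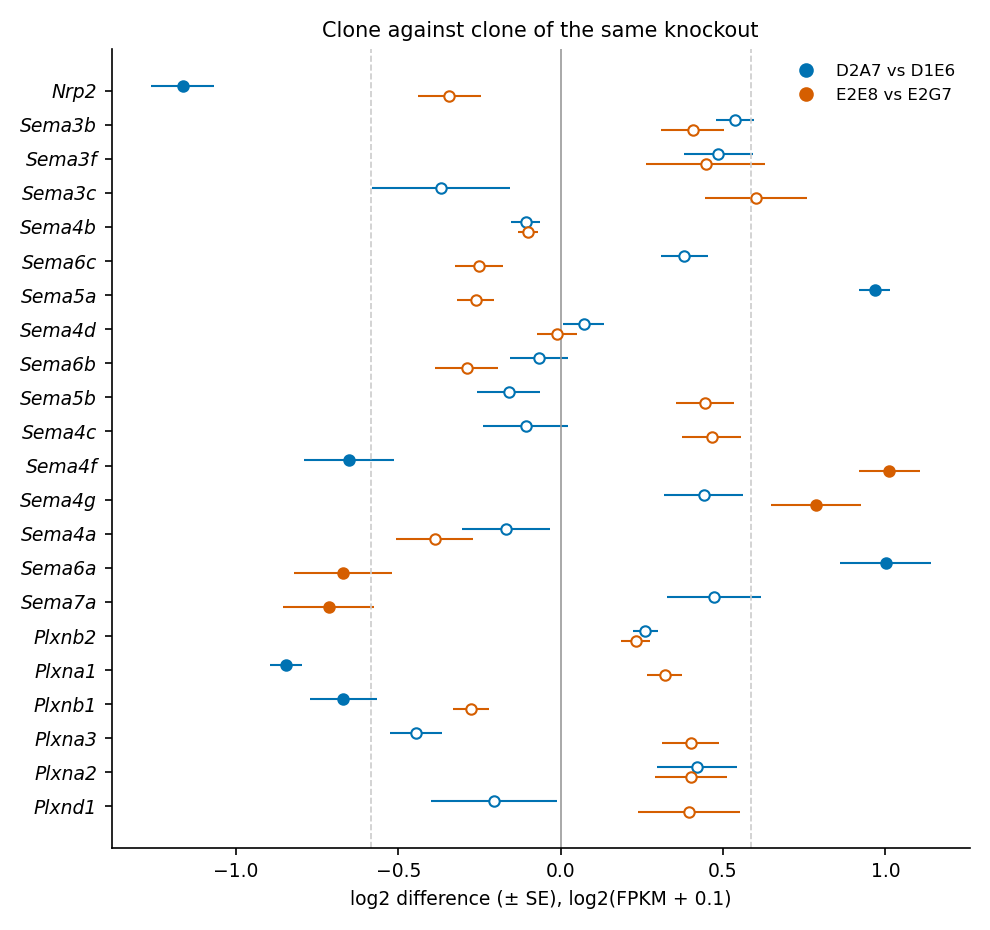
Log2 difference between clones of the same knockout, D2A7 minus D1E6 (blue) and E2E8 minus E2G7 (orange), on the log2(FPKM + 0.1) scale, with bars of 1 SE; filled points were called and dashed lines mark 1.5-fold. *Nrp2* stands at −1.16 between the *Dnttip1* KO clones and at −0.34 between the *Elmsan1* KO clones.

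The other genes of the pathway were taken from lists of co-receptors, VEGF ligands of neuropilins, plexin GTPases and their regulators, plexin-linked kinases and cytoskeletal effectors, and proteases that process semaphorins. The table held 85 of these genes, of which 78 were tested in each comparison. In *Dnttip1* KO 2 were called lower (2.56%) and 0 higher, and in *Elmsan1* KO 1 was called lower and 1 higher (1.28% each), all below the shares over all genes (3.25% and 3.26%, and 3.68% and 2.74%). The medians were 0.01 and −0.02, near those of all genes. *Flt4*, which encodes VEGFR3, the receptor that neuropilin 2 assists in VEGFC signalling, was called lower in both. It lay at 0.437 and 0.487 FPKM in WT, 0.0938 and 0.0822 in D2A7 and 0.0856 and 0.0857 in D1E6 (log2 fold change −1.61, SE 0.169, adjusted p = 0.00669). In *Elmsan1* KO it lay at 0.184 and 0.241 FPKM in E2E8 and 0.0678 and 0.0857 in E2G7 (−1.28, SE 0.329, adjusted p = 0.0599). All 8 knockout libraries were below WT. In *Dnttip1* KO versus WT it passed the limit of 0.1 FPKM through the WT libraries alone and could be called only as lower. Its *Elmsan1* KO call was lost with an estimated correlation within clones, with a pseudocount of 1 or 0.01, with the replicate number as a block, and without WT replicate 1, WT replicate 2, E2E8 replicate 1 or either E2G7 library. Without either WT library, 0 pathway genes were called in *Dnttip1* KO.

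The remaining pathway genes named here, *Nrcam*, *Dpysl2*, *Vegfc*, *Limk2* and *Myh9*, were chosen after their values were seen. *Nrcam*, an adhesion molecule that joins neuropilin complexes, was lower in *Dnttip1* KO, at 0.341, 0.320, 0.682 and 0.565 FPKM against 1.35 and 1.37 in WT (−1.41, adjusted p = 0.0378). In *Elmsan1* KO its level was 1.51 and 1.43 FPKM in E2E8 and 0.802 and 0.761 in E2G7 (−0.33, adjusted p = 0.518). *Dpysl2*, which encodes CRMP2, a microtubule-binding protein downstream of SEMA3A, was higher in *Elmsan1* KO, at 17.2, 16.3, 15.2 and 15.3 FPKM against 9.83 and 10.4 in WT (0.63, adjusted p = 0.00598). Its difference in *Dnttip1* KO was 0.24 (adjusted p = 0.374). *Vegfc*, the VEGF ligand of neuropilin 2, had 4.73 FPKM in WT, 6.61 in *Dnttip1* KO and 6.16 in *Elmsan1* KO (0.45 and 0.35, adjusted p = 0.0849 and 0.0520, not called), beside chromosome 8 medians of 0.34 to 0.36. All 26 GTPase and regulator genes and all 7 proteases were tested and 0 were called in either knockout. The VEGF ligand list also gave 0 calls in both. Below 1.5-fold, 1 of the 26 in each knockout, and 0 and 2 of the 7 proteases, had a limma adjusted p under 0.05. Of the 28 plexin-linked kinases and cytoskeletal effectors tested, 5 in *Dnttip1* KO and 3 in *Elmsan1* KO (with *Dpysl2*) had one. Over all genes tested, at any fold change, these were 1651 of 17434 and 1812 of 17212. *Limk2* (0.46 and 0.57, limma adjusted p = 0.00655 and 0.0108) and *Myh9* (0.49 and 0.57, limma adjusted p = 0.0107 and 0.00489) were higher in both knockouts. Both stayed just under 1.5-fold and were not called.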

How the data were processed

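RNA of 10 libraries (5 lines, 2 libraries each) was sequenced as stranded total RNA with paired ends on 3 instrument types that the labels do not assign to libraries. The authors aligned reads to NCBIM37 (mm9), counted fragments per gene with HTSeq on a GENCODE annotation and deposited FPKM, without pooling replicates. Their gene lengths are not given in the sources used here. With exon lengths of GENCODE vM1, which held 97.2% of the genes, 98.3% to 98.6% of low values were whole fragments within 0.05.

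FPKM were divided by median-ratio factors (0.965 to 1.01) over 11270 genes, log2(FPKM + 0.1) was fitted with limma (3.58.1, R 4.3.3, variance trend), and p-values were Benjamini-Hochberg adjusted over all genes with at least 0.1 FPKM in 2 libraries of a comparison. Levels in the text are FPKM as deposited. Before use, the fit was run on simulated data for each comparison, with 200 genes changed (of 17434 in *Dnttip1* KO versus WT). The simulated libraries varied independently, without differences between clones, so these runs cannot show how often the fit errs on clones that differ. Each of the 24 genes is given a level; values in every library are given for members called in any comparison and for the highest semaphorins, plexins and neuropilin, for pathway genes called in both knockouts (*Flt4*) and for the targeted genes. Shares over genes that passed the limit in both groups were added after seeing the data. The clones carry codes here, because the sources number the *Dnttip1* clones in different orders. The authors call the 2 libraries of a line biological replicates; whether they came from separate cultures is not given in the sources used here, so p-values measure the spread between these libraries. The genes and lists were chosen with earlier results of these data known. Alternatives were another pseudocount, filter, scaling, variance model, voom on recovered fragments, correlation within clones, a replicate block, centred chromosomes 6 and 8, and each library left out.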

Additional observations from a re-analysis of the deposited data

Results flagged for a closer look

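Members for which the clones of 1 knockout differed from each other in a test of that difference (limma, 2 against 2 libraries, at least 1.5-fold with unadjusted p under 0.01) are listed with their log2 differences. In D2A7 minus D1E6 these were *Nrp2* (−1.165), *Plxna1* (−0.8461), *Plxnb1* (−0.6697), *Sema4f* (−0.6522), *Sema5a* (0.9667) and *Sema6a* (1.00). In E2E8 minus E2G7 they were *Sema4f* (1.013), *Sema4g* (0.7871), *Sema6a* (−0.6713) and *Sema7a* (−0.7146). *Sema4f* and *Sema6a* differed between the clones of both knockouts. *Plxna1* and *Sema4f* lie on chromosome 6, whose medians were −0.08 in D2A7 and 0.42 in D1E6. With chromosomes 6 and 8 centred, their D2A7 minus D1E6 differences were −0.34 and −0.15 and were not called. Dixon's test for a library apart from the other 3 of its knockout flagged 0 of 48 groups of 4 (largest ratio of gap to range 0.781). Chance exceeds its limit in about 1 group in 20. Each group held 2 libraries from each of 2 clones. Where the clones differ, the values form pairs, and the gap at either end is small beside the range. For such members the test cannot show whether a library stood apart.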

How the results depend on the processing

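No result changed sign under any alternative run, and 289 repeated single-gene values kept their side of the threshold while 68 fell short of it. The limits are the 2 WT libraries, which decide most calls, and the depth of genes near 0.1 FPKM. Counts of members called moved by over 1.5 times as follows, and where no value shows the cause, the cause was not tested. With a pseudocount of 1 the counts were 3 in *Dnttip1* KO, 3 in *Elmsan1* KO, 3 between D2A7 and D1E6 and 0 between E2E8 and E2G7, and pathway genes gave 1 in each knockout. With a mean of at least 1 FPKM, which tests fewer genes, members gave 3 in *Elmsan1* KO and 1 between E2E8 and E2G7, and pathway genes 0 in *Dnttip1* KO and 1 in *Elmsan1* KO. With a pseudocount of 0.01, 1 member differed between the knockouts and 1 pathway gene was called in *Elmsan1* KO. With voom, 3 members and 4 pathway genes were called in *Elmsan1* KO and 1 member between the knockouts. Pathway genes called in *Elmsan1* KO were 4 with no filter, with FPKM as deposited and with no variance trend, and 1 with an adjusted p under 0.05. With a correlation within clones (0.704 in *Dnttip1* KO and 0.768 in *Elmsan1* KO), 2 members and 1 pathway gene were called in *Elmsan1* KO. Leaving out 1 library gave 2 to 5 members in *Dnttip1* KO, 2 to 4 in *Elmsan1* KO, 0 to 2 between the knockouts, 3 to 5 between D2A7 and D1E6 and 1 to 3 between E2E8 and E2G7, with pathway genes at 0 to 3 and 1 to 3; a lone library left in a group is assumed to vary like the others. Without either WT library the count was 2 in each knockout. Over all genes, 1135 were called in *Dnttip1* KO and 1106 in *Elmsan1* KO, against 540 and 525 with a pseudocount of 1, 664 and 603 under that filter on the mean, 538 and 486 with a correlation within clones and 1007 and 932 with voom. Of all genes called, the lower share moved from 49.9% to 61.1% in *Dnttip1* KO and from 57.3% to 67.8% in *Elmsan1* KO with voom, and with quantile normalization from 27.2% to 48.9% between the knockouts, from 28.8% to 45.3% between D2A7 and D1E6 and from 23.8% to 44.2% between E2E8 and E2G7.

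The replicate numbers gave no pairing common to all lines, as replicate differences of 10 pairs of lines correlated at −0.194 to 0.337, with 1 of 10 over 0.1. The highest value was that of D2A7 with E2E8, and WT stood at −0.189 and −0.194 with these clones. Whether these libraries shared a factor by replicate number was not tested. With the replicate block, 4 members were called in *Dnttip1* KO, where *Nrp2* (limma adjusted p = 0.115) and *Sema3e* (limma adjusted p = 0.109) fell short, and 4 in *Elmsan1* KO, where *Sema6b* fell short and 1 pathway gene was called; between D2A7 and D1E6 and between E2E8 and E2G7 it gave 5 and 3.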
